A study of Labrus bergylta with 25 samples.

Results

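A set of 100 genes of the ballan wrasse gut had a lower read number in intestines filled with hydrolyzed protein or hydrolyzed lipid than in intestines filled with cellulose or left empty. They were chosen by their own values. For each of the 19033 genes with a normalised read count above 10 in at least 5 of 25 libraries, the 4 treatment means of log2(value + 1) were sorted and the largest of the gaps between neighbours was found. In 1405 genes this gap had protein and lipid below it and cellulose and empty above it. The members are the 100 of these with the highest gap divided by the pooled within-group SD, and they are called here by their rank in that order. The difference between nutrient and other libraries is therefore a property of the choice. It is given below as a description, and the calls of a test over all genes are printed for this contrast with nothing read from them about the members.

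The bulbous is the wide front part of the gut of this fish, which has no stomach, and it is the main place of digestion. A bolus in the gut lumen acts on the wall both by stretching it and by the nutrients it releases. Amino acids, peptides and fatty acids are sensed by receptors and transporters of the epithelium, and enteroendocrine cells and enteric nerves pass these signals on to muscle and to secretion. Cellulose, which the fish does not digest, fills the gut without feeding it. The study compared nutrients with cellulose to set them apart from stretch, and cellulose with empty gut for the effect of filling. In its separate motility experiment, cellulose left the bulbous sooner than protein or lipid did. How full the bulbous was after the 1 h of incubation is not given for these libraries, so whether stretch was equal was not tested.

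The libraries came from Segment 1, the bulbous, of fasted juveniles labelled as females, whose whole intestines were taken out, filled and kept in Ringer's solution for 1 h. There were 6 libraries with protein (casein digested with trypsin, mixed with protease and phosphatase inhibitors). Another 6 had lipid (cod liver oil digested with lipase, with a detergent). Cellulose (in water with a blue dye) had 7, and 6 came from empty intestines, each library from its own RNA sample. The nutrient mixes thus differed from the cellulose mix in their enzymes, buffers and additives as well as in nutrients. RNA came from pieces of the whole gut wall, so fewer cells of a type and less RNA per cell cannot be told apart.

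The deposited identifiers are not paired with gene names in the files, and 0 of 20208 matched the RefSeq gene table of this species. Functions of the members, their positions, and markers of the tissue were therefore not analysed here. The 2 members with the highest ratios are LABE_00013893-RA (rank 1) and LABE_00016148-RA (rank 2). The values are read counts divided by a size factor of each library, not by gene length, so they compare libraries and not genes. In 23 libraries the reads behind the values were recovered, and they numbered 10160088 to 31586869 per library. Between 89 and 1003 genes were listed at 0 in a library. Lipid library 14 and empty library 24 stood apart from their groups over the members, as shown further on, and counts that rest on them are also given without them.

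The largest gap can divide 4 means in 14 ways, and protein and lipid lay below in 1405 of 19033 genes (7.38%). The opposite division, with cellulose and empty below, held 1564 genes. Among the 6 ways that put 2 treatments on each side, these were the largest counts, and the other 4 held 540 to 724 genes. Divisions that set 1 treatment apart held 927 to 2091 genes. Genes with a gap larger than the pooled SD numbered 94 with both nutrients below and 108 with both above. They numbered 205 where protein alone lay below and 202 where empty alone did. What these counts would be with unrelated treatments was not worked out, and the 14 counts are given as a description.

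**Figure D1:**
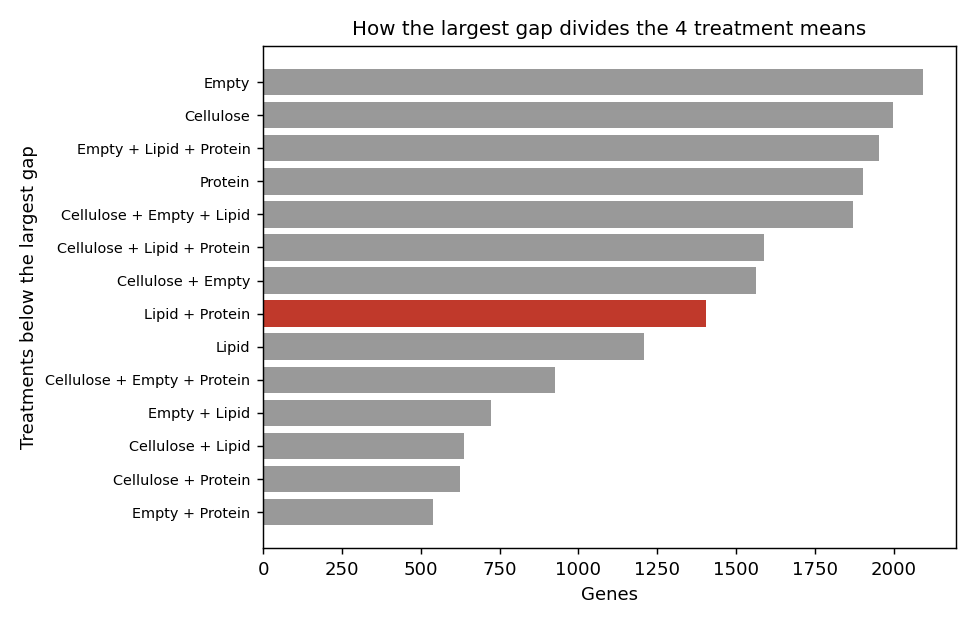
Number of genes (horizontal axis) for each way in which the largest gap divides the 4 treatment means; labels give the treatments below the gap. The bar for protein and lipid (1405 genes, coloured) and that for cellulose and empty (1564 genes) exceed the other bars with 2 treatments below (540 to 724 genes).

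The differences of the members were small to moderate. The fold by which the mean of both nutrient groups lay below the mean of the other groups, on the log2(value + 1) scale, ran from 1.12 to 2.34 with a median of 1.33. It was over 2 in 5 members and over 1.5 in 29. The gap had a median of 0.33 log2 units and the pooled SD a median of 0.29, so a typical member's gap was about as large as the spread between libraries of a group. The ratio of gap to SD ran from 0.99 to 1.73 (median 1.09), and in 6 members the SD was larger than the gap. Over all genes tested the median gap was 0.20, the median SD 0.40 and the median ratio 0.49. The members' SD thus lay below that of the genes at large. Ranking by a ratio with the SD below the line favours this, and the members also drew more reads, as given below. Because of the ranking by this ratio, 30 genes with a fold over 2 and both nutrients below were not members. The largest of these differences was 7.61-fold with a ratio of 0.72.

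The size of the difference went with the number of reads a gene drew. The mean value over 25 libraries had a median of 377 in the members and 156 in all genes tested, and ran from 6.63 to 8149 in the members. In the 13 members with a mean under 20 the fold was 1.46 to 2.34 (median 1.78) and the median SD was 0.58. In the 22 members between 20 and 200 the median fold was 1.46 and the median SD 0.38. The 45 members between 200 and 1000 had a median fold of 1.27, and the 20 members over 1000 a median of 1.24, with median SDs of 0.26 and 0.22. Members with few reads had to differ more to be chosen, because their values spread more between libraries. The filter also favours such differences, as a gene with few reads can pass it only through groups where it is high. Ranks 7 and 59 did so. In all genes tested with a mean under 20 the median SD was 0.91, above that of the members in the same class. It was 0.46 between 20 and 200, 0.27 between 200 and 1000 and 0.27 over 1000. In the class with 45 members the SD was thus nearly that of all genes.

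**Figure D2:**
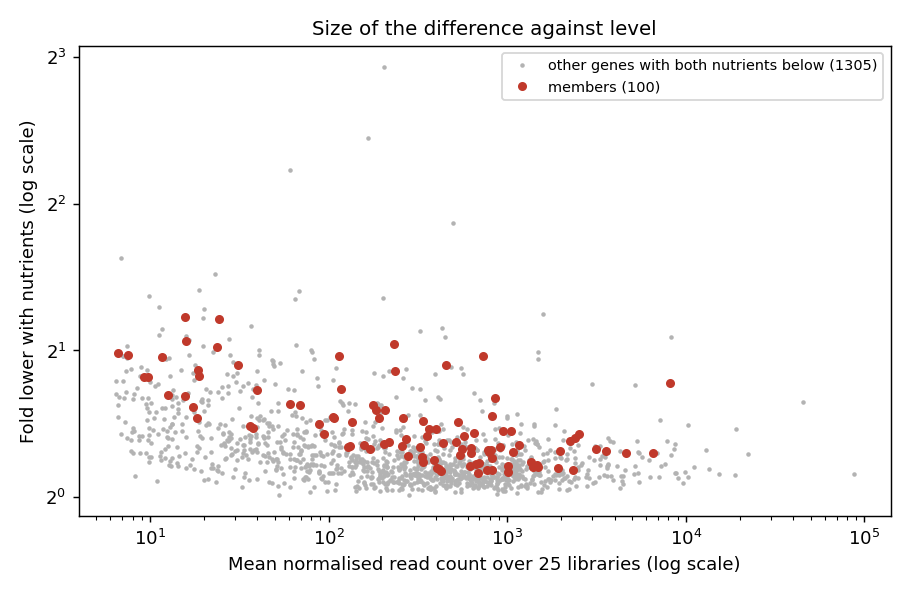
Fold by which nutrient libraries lay below the others (log vertical axis) against the mean normalised read count over 25 libraries (log horizontal axis), for the 100 members (red) and the other genes with both nutrients below (grey). Members with a mean under 20 show 1.46-fold to 2.34-fold differences, those over 1000 except rank 79 less than 1.5-fold, and the grey points at the top are genes with a larger fold and a larger spread.

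LABE_00013893-RA, ranked 1, had the highest ratio, 1.73, at low values. It ran from 2.88 to 7.81 with protein (median 3.92) and from 2.38 to 15.2 with lipid (median 3.29), against 6.95 to 15.3 with cellulose (median 8.72) and 6.86 to 14.0 in empty intestines (median 9.82). The nutrient libraries overlapped the others through 2 libraries, protein library 11 and lipid library 29, and the latter, at 15.2, was next to the highest cellulose library. On the log2 scale it was lower with nutrients by 0.97 with a pooled SD of 0.54. These values rest on 2 to 17 reads per library among the 23 with recovered reads.

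LABE_00016148-RA, ranked 2, drew many more reads and differed by less. Its values were 624.9 to 797 with protein (median 725), 584 to 824 with lipid (median 775), 770 to 1067 with cellulose (median 896) and 773 to 1014 in empty intestines (median 858). This is a 1.248-fold difference, with a pooled SD of 0.16 log2 units. The groups overlapped between 770 and 824, where 4 nutrient libraries stood above the lowest of the other libraries.

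The member ranked 3 had 16.6 to 24.9 with protein (median 18.8), 14.3 to 26.2 with lipid (median 21.5), 23.2 to 41.6 with cellulose (median 36.2) and 23.3 to 81.2 in empty intestines (median 44.4). Its difference was 1.87-fold, and 22 of 25 libraries lay on the side of the midpoint where the rest of their groups did. Empty libraries 19 and 26, at 74.3 and 81.2, were the high values, and the mean in empty gut was above that with cellulose by 0.44 log2 units, the widest such distance among the members. The member ranked 5 had 1814 to 2139 with protein (median 1856), a narrow range, and 1487 to 2782 with lipid (median 2197). It had 2185 to 3406 with cellulose (median 2715) and 2442 to 3264 in empty intestines (median 2641). All protein libraries lay below all cellulose and all empty libraries in this gene, whereas lipid libraries 14, 18 and 28 lay above the lowest cellulose library.

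Ranks 4, 9 and 10 had the same shape with other overlaps. Rank 4 had medians of 355 with protein, 355 with lipid, 448 with cellulose and 419 in empty gut, with 8 nutrient libraries above the lowest of the others, cellulose library 27 at 345. Rank 9 had medians of 515, 521, 753 and 709 in the same order, and lipid library 14 reached 895, close to the highest empty library at 903. Rank 10 had medians of 112, 102, 154 and 162, and here too lipid library 14 was the highest of the nutrient libraries, at 185. The nutrient libraries nearest to the other groups were therefore not the same in each gene, but lipid library 14 recurred.

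Ranks 6, 7 and 8 were genes with few reads. Rank 6 had medians of 6.92 with protein, 7.89 with lipid, 15.5 with cellulose and 12.5 in empty intestines, and empty library 19 stood at 37.7. Rank 7 had medians of 5.42, 7.11, 10.3 and 11.3. It reached 8.80 with protein and 9.81 with lipid, so it passed the filter of values above 10 only through cellulose and empty libraries. Rank 8 had medians of 7.74, 8.20, 24.3 and 19.4, a 2.09-fold difference, yet 11 of the 12 nutrient libraries stood above cellulose library 25, which had 5.86. The next lowest of the other libraries in rank 8 was an empty one, at 9.81.

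**Figure D3:**
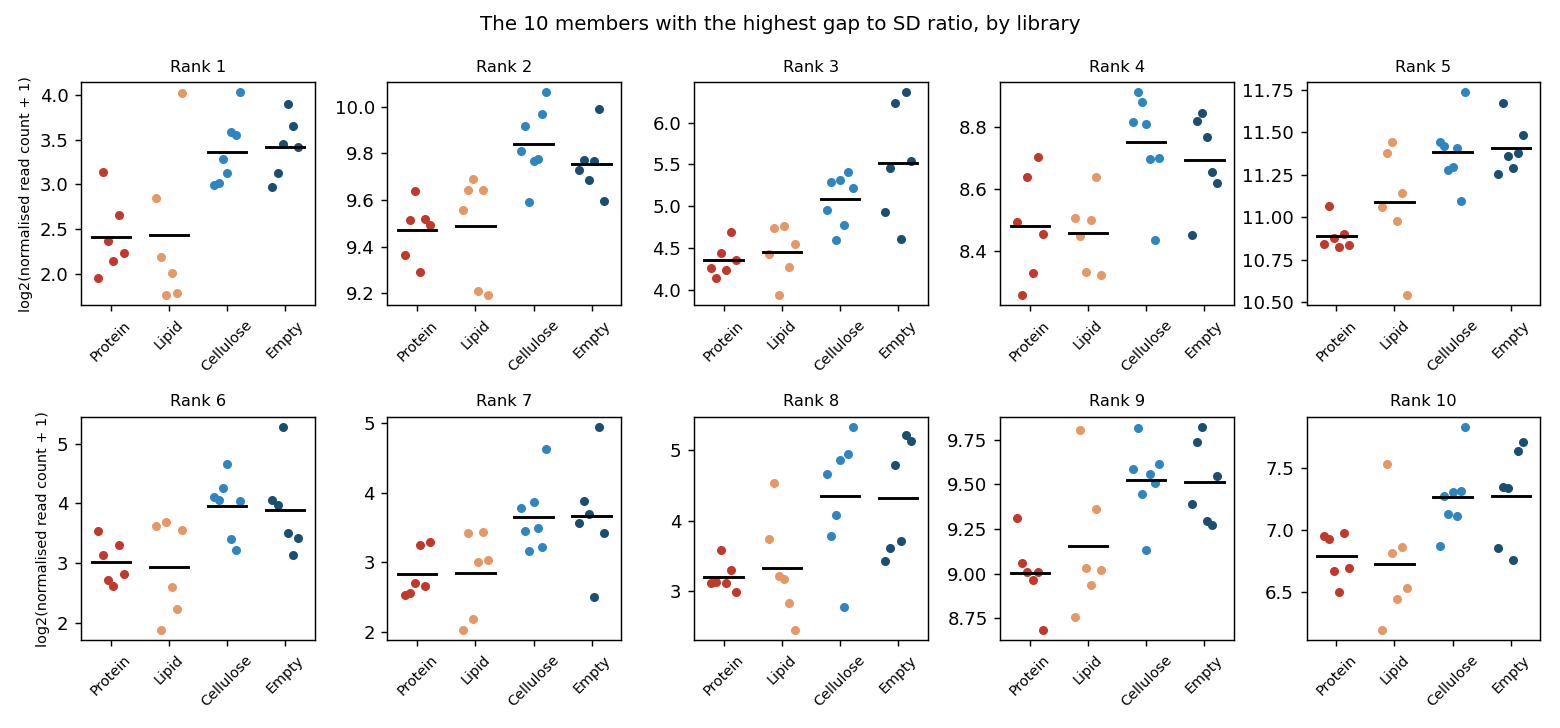
Values of the 10 members with the highest ratio of gap to SD, as log2(normalised read count + 1) on the vertical axis of each panel, by treatment; points are libraries (6 protein, 6 lipid, 7 cellulose, 6 empty) and bars are group means. Group means with nutrients lie below the others in each panel by construction, and single libraries cross over in each.

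The 5 members with the largest gaps were ranks 1, 8, 30, 68 and 98, of which ranks 1 and 8 were also among the 10 with the highest ratios. Rank 68, with the largest gap at 1.02 log2 units, had 4.79 to 17.9 with protein (median 9.75), 0 to 16.5 with lipid (median 8.96), 4.63 to 38.1 with cellulose (median 22.5) and 9.32 to 31.4 in empty intestines (median 20.1). Its 0 in lipid library 28 is the lone 0 among the members' values and allows a value of up to 3.68, which 3 reads would give (counting error alone). Rank 98 had 1.85 to 26.2 with protein (median 11.3) and 3.68 to 68.0 with lipid (median 12.9), against 22.3 to 42.5 with cellulose (median 27) and 18.6 to 52.6 in empty gut (median 29.8). Lipid library 29 held the highest of its 25 values, although the gene is 2.32-fold lower with nutrients. Rank 30 had 44.3 to 251 with protein (median 180), 59.5 to 321 with lipid (median 112), 152 to 424 with cellulose (median 290) and 149 to 707 in empty intestines (median 300), a 2.06-fold difference. Its nutrient libraries spread over a wider range than its difference.

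The 5 members that drew the most reads were ranks 23, 38, 52, 79 and 80. Rank 79, with a mean of 8149, had 3050 to 7848 with protein (median 4843), 3594 to 10635 with lipid (median 6629), 7781 to 14266 with cellulose (median 10534) and 4643 to 11666 in empty intestines (median 10443). Its difference of 1.72-fold was the largest among the 20 members with a mean over 1000. Empty library 24, at 4643, lay below the protein median, and the next empty library was at 8197. Rank 38 had medians of 5874 with protein, 5614 with lipid, 6614 with cellulose and 6979 in empty gut, with cellulose library 31 alone at 11413. Ranks 23, 52 and 80 had differences of 1.26-fold, 1.246-fold and 1.23-fold.

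The 5 members with the fewest reads were ranks 1, 6, 7, 59 and 96, with means of 6.63 to 11.7. Rank 59 had 2.66 to 3.91 with protein (median 3.14), 1.01 to 7.21 with lipid (median 5.12), 2.83 to 13.5 with cellulose (median 7.14) and 4.90 to 15.9 in empty intestines (median 11). No nutrient library of rank 59 was above 10, so it passed the filter only through cellulose and empty libraries. Protein libraries were all below the empty ones, and nothing is read from this. The lipid libraries overlapped both groups, with library 21 below all protein libraries and 4 libraries above the lowest empty one. Rank 96 had medians of 6.77, 4.36, 9.89 and 12.9 in the same order. In 15 members at least 1 library had a value under 10.

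The end of the list is not a break in the data. Ranks 99 and 100 had ratios of 0.9945 and 0.9921, and the first 2 genes left out had 0.9913 and 0.9878. Their folds were 1.24 and 1.78 inside, and 1.21 and 1.27 outside. The opposite list, of genes higher with both nutrients, reached 2.34 at its top and 1.01 at its gene 100, where the present list has 1.73 and 0.99.

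No member kept nutrient and other libraries fully apart. The count was 0 of 100 members and 0 of 19033 genes (0%), and 1 gene of the table did so in the opposite direction. The number of nutrient libraries standing above the lowest other library ran from 2 to 12 of 12 with a median of 7. Counted against the midpoint of the 2 sides, a member had 16 to 23 of 25 libraries on their own side (median 19), and 14 members had at least 21. Between single groups, protein lay wholly below cellulose in 7 members, where 0.284% of all genes did, and wholly below empty in 4 (0.273% of all genes). Lipid lay wholly below cellulose in 1 member (0.063% of all genes) and wholly below empty in 0 (0.0473%). Rank 5 was in both protein counts. Rank 59 was in the count against empty, and it had passed the filter only through cellulose and empty libraries. As the choice used these comparisons, nothing is read from the counts against these shares, and the protein and lipid comparisons share their cellulose and empty libraries.

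The same holds for limma's test on all genes, in which a gene was called at an unadjusted p under 0.01, the threshold of the study. In the contrast of both nutrients with both other groups 92 members were called lower, of 345 genes or 1.81% of those tested. None of the 100 members had a Benjamini-Hochberg adjusted p under 0.05 in this contrast, where limma gave 4 such genes in all and 2265 genes at an unadjusted p under 0.05. On the recovered reads of 23 libraries edgeR gave 1 gene and 0 members at an adjusted p under 0.05, and DESeq2 45 genes and 7 members. With limma, 1 member of 6 genes had such an adjusted p without cellulose library 13 and 1 of 3 genes without empty library 24. Leaving out any other single library gave 0 members, also without protein library 32, where 8 genes had such an adjusted p. Without both lipid library 14 and empty library 24 there were 20 genes and 11 members. These 2 libraries were left out after their positions over the members were seen. Leaving out libraries that go against the list favours higher counts, so nothing is read from that setting. Against cellulose, 36 members were called lower with protein (1.4% of all genes) and 18 with lipid (0.594%). Against empty intestines the counts were 24 with protein (1.5%) and 7 with lipid (0.284%). In these 4 contrasts limma on all libraries and edgeR gave 0 members at an adjusted p under 0.05. They also gave 0 genes in all, except 3 genes with limma for protein against empty. DESeq2 gave 8 members of 109 genes for protein against cellulose and 2 of 50 for protein against empty. For lipid it gave 0 members of 0 genes against cellulose and 0 of 1 against empty. The counts at the unadjusted p moved with single libraries, and so did those of all genes called lower. Protein against cellulose fell to 20 members of 188 genes without cellulose library 31, from 36 of 266. Protein against empty ranged from 13 of 255 genes without empty library 26 to 37 of 357 without empty library 24. Lipid against cellulose ranged from 10 of 55 genes without lipid library 21 to 35 of 185 without lipid library 14. Lipid against empty ranged from 5 of 46 genes without lipid library 21 to 24 of 87 without empty library 24. Without both lipid library 14 and empty library 24, the counts against cellulose were 43 of 294 genes with protein and 36 of 196 with lipid. Against empty they were 42 of 362 and 37 of 118. In the contrast of both nutrients 88 members of 545 genes were then called.

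Within the bound set by the choice, protein and lipid differed little from each other in the members, and so did cellulose and empty. The distance between the protein and lipid means had a median of 0.08 log2 units and a maximum of 0.40, and that between cellulose and empty a median of 0.05 and a maximum of 0.44. Since the gap had to be the largest of the distances, these sizes are bounded by the choice, but their directions are not. Protein was the lowest treatment in 58 members and lipid in 42. Over all genes tested protein was below lipid in 47.0%, and in the 1405 genes with both nutrients below in 57.9%. Cellulose was the highest treatment in 55 members and empty in 45, beside 51.0% and 52.8% of the same wider sets. The combination of protein lowest with empty highest was found in 31 members, and lipid lowest with empty highest in 14, with 27 and 28 for the others. For the direct comparison of protein with lipid, limma called 0 members lower and 0 higher, beside 0.294% and 0.152% of all genes. For cellulose with empty it also called 0 and 0, beside 0.368% lower and 0.552% higher. As the choice keeps both distances below the gap, few calls could arise, and nothing is read from these counts. Protein with lipid gave 470 genes at an unadjusted p under 0.05 and cellulose with empty 986.

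The 100 members together held a small share of the signal. They took 0.398% to 0.518% of a library's summed values with protein (median 0.438%) and 0.406% to 0.579% with lipid (median 0.482%). The share was 0.526% to 0.760% with cellulose (median 0.597%) and 0.470% to 0.692% in empty intestines (median 0.635%). The ranges of the nutrient and other groups overlapped, from 0.470% in empty library 24 to 0.579% in lipid library 14.

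**Figure D4:**
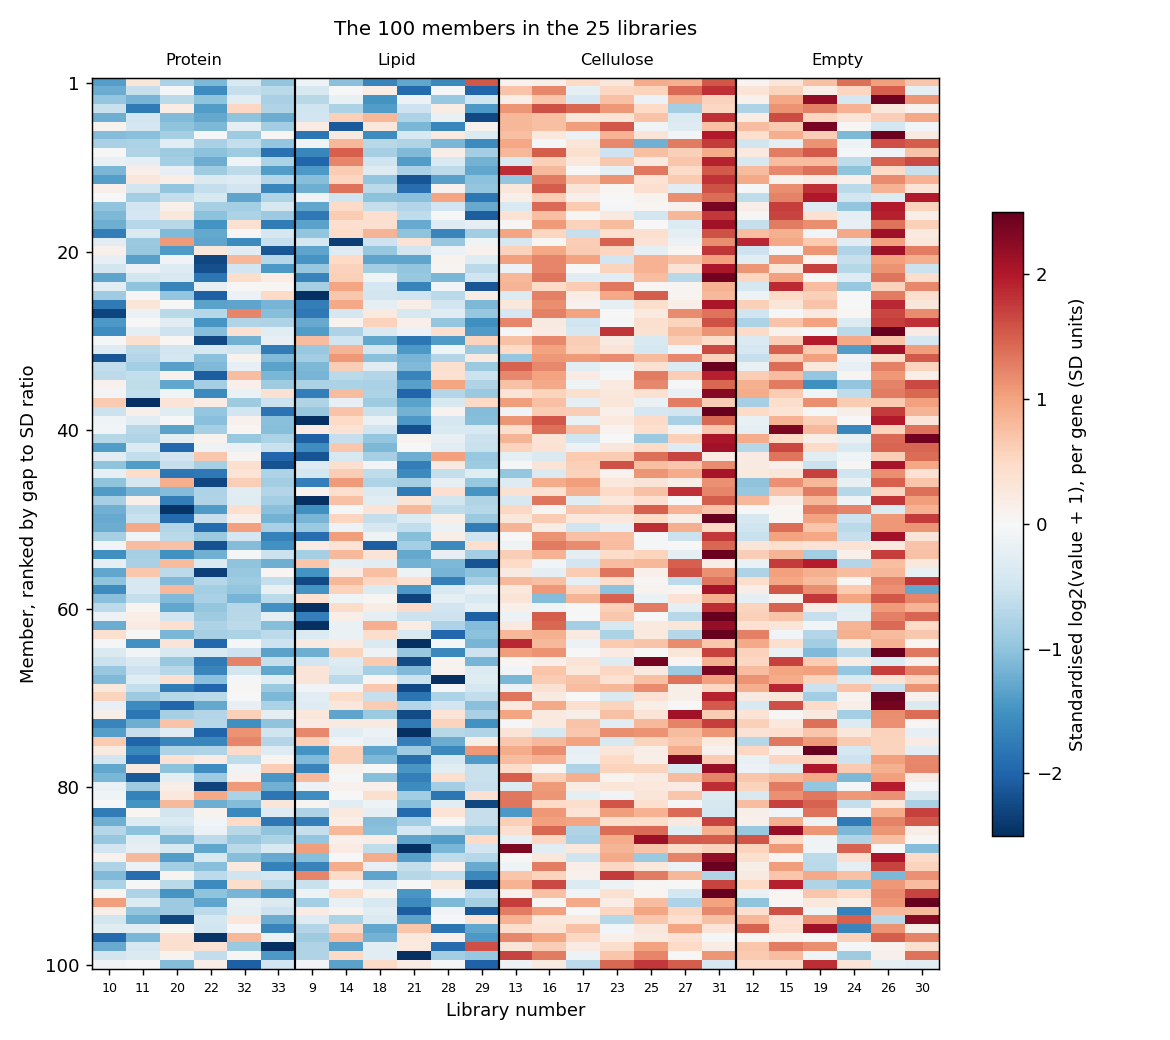
Values of the 100 members (rows, rank 1 at the top) in 25 libraries (columns, by treatment and library number), as log2(value + 1) standardised per gene, in SD units from blue (low) to red (high). Protein and lipid columns are mostly blue and cellulose and empty columns mostly red by construction, whereas lipid library 14 and empty library 24 show many cells of the other colour.

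Single libraries differed in how far they followed the list. To compare them, each member's value was placed on a scale that is 0 at the mean of the nutrient groups and 1 at the mean of the other groups. The median over the members was -0.30 to 0.32 in the protein libraries, -0.38 to 0.73 in the lipid libraries, 0.72 to 1.72 with cellulose and 0.38 to 1.50 in empty intestines. By this median 23 of 25 libraries lay on their own side of 0.5. Lipid library 14 (0.73) had 64 members nearer to the other groups, and empty library 24 (0.38) had 58 nearer to the nutrient groups. Cellulose library 31 (1.72) and empty library 26 (1.50) were the farthest beyond the mean of their side, with 94 and 91 members nearer to it.

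The positions of these libraries differed between classes of read number. Lipid library 14 was at 0.42 in members with a mean under 20, 0.61 between 20 and 200, 0.74 between 200 and 1000 and 0.97 over 1000. Empty library 24 was at 0.48, 0.23, 0.36 and 0.54 in the same classes. Lipid library 14 was thus on its own side in the lowest class and empty library 24 in the highest. Cellulose library 31 was at 1.2 in the lowest class and at 1.74 to 1.90 in the others. Cellulose library 31 had the fewest recovered reads of the 23, 10160088, and empty library 26 had the fewest of the 5 empty libraries recovered, 11079610. Cellulose library 16, with 10413012 reads, was at 1.14, and lipid library 18, with 11803381, was at 0.21. The choice of genes pulls each of them to its own side, so nothing is read from these values about depth. Lipid library 14 had the most reads of the lipid libraries recovered, 15686525. The part of depth in these positions was not tested.

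A library that takes part in the choice pulls its own values towards its side. The list was therefore chosen 25 times, each time without 1 library, and that library was then placed on the scale of the genes chosen without it. Only 17 of 25 libraries then lay on their own side by the median, 8 of 12 with nutrients and 9 of 13 without. The mean position was 0.33 ± 0.37 (SD, n = 12) with nutrients and 0.67 ± 0.42 (SD, n = 13) without, so the distance between the sides was 0.34 of the distance the list was chosen for. By group, protein had 0.19 ± 0.27 (SD, n = 6), lipid 0.47 ± 0.43 (SD, n = 6), cellulose 0.76 ± 0.36 (SD, n = 7) and empty 0.57 ± 0.49 (SD, n = 6). The ranges overlapped, from -0.17 to 1.11 with nutrients and from -0.06 to 1.46 without. The libraries on the far side were protein library 32 (0.57), lipid libraries 14 (1.11), 18 (0.58) and 28 (0.66), cellulose library 27 (0.36) and empty libraries 12 (0.22), 19 (0.40) and 24 (-0.06). These 25 choices share most of their libraries and are not independent, so no p is given. What the count and the distance would be with unrelated treatments was not worked out, so both are given as a description. The list of genes higher with both nutrients, treated in the same way, also had 17 of 25 libraries on their own side, at a distance of 0.34.

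**Figure D5:**
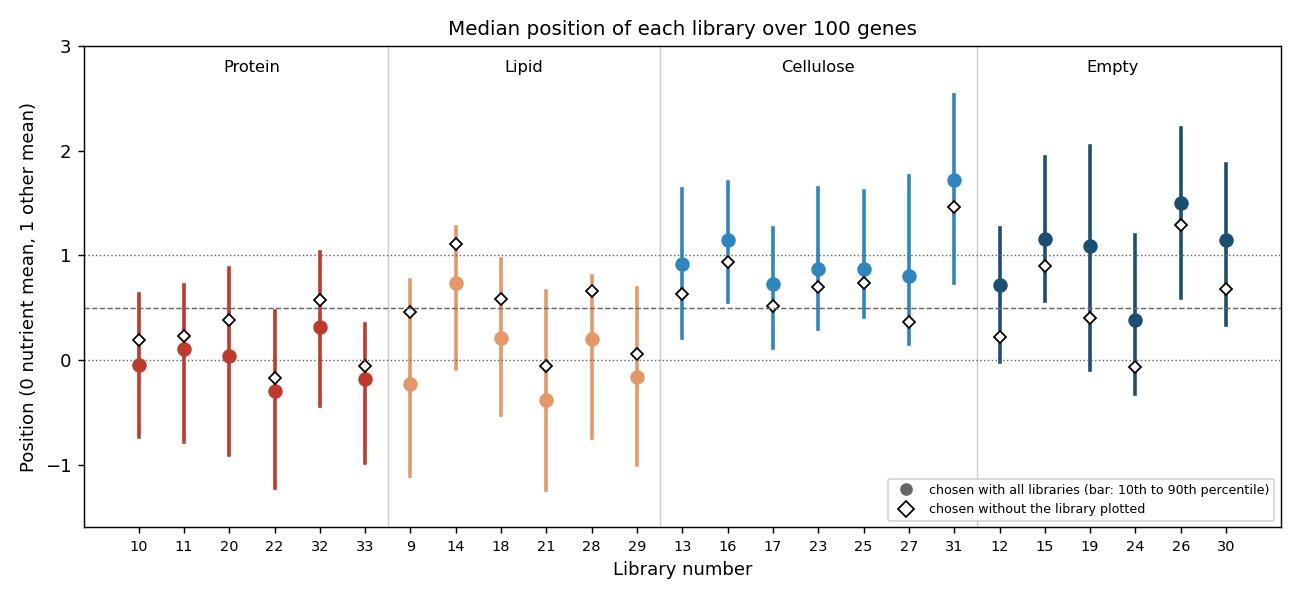
Median position of each library over 100 genes (vertical axis; 0 is the mean of the nutrient groups, 1 the mean of the others, dashed line 0.5) by library number and treatment. Filled circles use the members (bars: 10th to 90th percentile of members) and open diamonds use 100 genes chosen without that library; the diamonds lie nearer to the other side, and 17 of 25 remain on their own side.

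The list itself also moved with single libraries. Of the 100 members, 62 to 86 were chosen again when 1 library was left out, with the lowest number without lipid library 14 and the highest without protein library 10 or 11 or cellulose library 17. Without both lipid library 14 and empty library 24, chosen after their positions were seen, it was 54. In the 25 choices a member was chosen 8 to 25 times (median 20). The 19 members chosen in all 25 were ranks 1 to 4, 6 to 11, 13 to 17, 20, 23, 28 and 31, and 12 members were chosen 12 times or fewer. In all, 397 genes were chosen at least once. The genes near the end of the list are thus exchangeable with many others, as the closeness of their ratios implies.

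Within the treatment groups the members varied together. After the group mean of each gene was taken off, the correlation between 2 members over the 25 libraries had a median of 0.20 over 4950 pairs, and 14.5% of the pairs were over 0.5. For all pairs of genes tested the median was -0.001 and 2.72% were over 0.5. The median correlation of a member with the other 99 was above 0 in 90 members, and highest for rank 10 (0.46). Both members with the largest folds had low medians, 0.01 for rank 68 and -0.12 for rank 98. They drew few reads (means of 15.8 and 24.3), and the lowest median was that of rank 100, at -0.18. The closest pairs were ranks 17 and 52 (0.87), 38 and 89 (0.85) and 31 and 52 (0.85). Rank 17 had medians of 277 with protein, 323 with lipid, 395 with cellulose and 424 in empty gut, rank 31 had 888, 837, 1155 and 1278, and rank 89 had 749, 818, 942 and 963. These correlations describe points that share libraries, size factors and the libraries used in the choice. The members also drew more reads than all genes tested (median mean value 377 against 156) and were chosen in 1 direction. No set of genes matched in level was compared.

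The shared pattern was that of the libraries named above. The median distance of the members from their own group's mean was 0.28 log2 units in cellulose library 31, where 79 members were above it, 0.24 in lipid library 14 (89 members) and 0.23 in empty library 26 (82 members). It was -0.24 in empty library 24, where 19 members were above the group mean, and -0.18 in lipid library 21 (29 members). In protein the range was narrower, from -0.08 in library 22 to 0.13 in library 32. The distance between libraries of a group was thus of the order of the members' median difference of 0.41 log2 units between nutrient and other groups.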

How the data were processed

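Single-end RNA-seq libraries of 25 intestines were grouped by their treatment label. Reads had been trimmed (Trim Galore 0.4.2), aligned (HISAT2), assigned to genes (featureCounts) and scaled (DESeq2) by the authors. The deposited signal is a read count over a library's size factor. An Ensembl annotation is named in the methods, but the identifiers have another form.

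limma 3.58.1 in R 4.3.3 (trend and robust moderation, 4 groups in 1 fit, log2(value + 1)) was the main test, over genes above 10 in at least 5 libraries. In each of the 25 libraries 100% of values were whole reads within 0.01 of a read, with the smallest value taken as 1 read. edgeR 4.0.16 and DESeq2 1.42.0 were run on 23 of them. Empty library 19 (0.991) and lipid library 21 (1.009), where 1 read is worth close to 1, were left out of those fits. Empty library 12, at 0.981, was kept among the 23. Among these 23, no 2 libraries of a group were copies (chi-square per degree of freedom at least 25.9 in 56 pairs). Over all 25 libraries the highest correlation of log2 values between 2 libraries of a group was 0.956. The numbers of the labels are unique to each library and do not tell which intestines were handled together, so no pairing was used. Replicates are separate RNA samples, and the p-values set differences of group means against the spread between them within groups. The scripts were tested on simulated data with planted differences larger than the members' median. This checks the code and not whether differences of the members' size would be found.

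The rule for the list, its members and the alternatives were chosen with earlier results of these data known. Described by value are ranks 1 to 10, the 5 largest gaps, the 5 highest and 5 lowest means, the 3 closest pairs and ranks 99 and 100; 2 identifiers are printed because the files do not pair them with names.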

Additional observations from a re-analysis of the deposited data

Results flagged for a closer look

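In 13 of 124 combinations of a treatment with a library measure or a described member, 1 library lay far from the rest of its group for the group's range. The limit used gives about 1 in 20 for independent, normally distributed values. Many of the sets share libraries and their values need not be normal, so no excess over chance is read from the count. Protein library 33 had 31586869 recovered reads against 16218891 in the next deepest protein library. The number of genes with a 0 was 308 in protein library 20, where the next had 149, and 659 in cellulose library 27, where the next had 274.

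Cellulose library 31 stood apart in 3 sets. Its median position over the members was 1.72 against 1.14 in the next cellulose library, the members took 0.760% of its signal against 0.622%, and the member ranked 38 had 11413 against 7254. Its reads were the fewest of the cellulose libraries, and the part of depth was not tested.

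Among the protein libraries, the member ranked 5 had 2139 in library 11 against 1914 in the next, the member ranked 31 had 620 in library 33 against 836, and the member ranked 96 had 2.78 in library 33 against 5.97. Among the lipid libraries, the member ranked 59 had 1.01 in library 21 against 4.48, and the member ranked 68 had 0 in library 28 against 7.10. The member ranked 68 had 4.63 in cellulose library 13 against 17.4, and the member ranked 100 had 47.6 in empty library 19 against 21.6.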

How the results depend on the processing

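With the pseudocounts 0.1 and 5, no filter, a mean of at least 50, upper quartile scaling and TMM scaling, 81 to 98 of the 100 members were chosen again. The 81 belong to the stricter filter, which by construction removes 19 members. Under the same settings 16 to 18 of 25 libraries lay on their own side when left out. The count of members without overlap was 0 throughout. Neither scaling turned the direction of a member, which is likely for genes chosen by that direction. Upper quartile and TMM scaling moved the median difference of all genes by about 0.01 log2 units.

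Of the members called lower at an unadjusted p under 0.01, the 18 for lipid versus cellulose became 10 with limma on 23 libraries, 8 with edgeR and 11 with DESeq2, all of which lack lipid library 21. All genes called lower in that contrast went from 113 to 59, 54 and 107 in the same order. The 7 for lipid versus empty became 4 with 2 groups in the fit, while all genes called lower went from 54 to 31. Other tools and settings kept the counts of members within 1.5 times. Leaving out 1 library gave 62 to 86 members chosen again, and 78 to 93 members called for both nutrients, 20 (without cellulose library 31) to 38 for protein versus cellulose, 10 to 35 for lipid versus cellulose, 13 (without empty library 26) to 37 (without empty library 24) for protein versus empty and 5 to 24 for lipid versus empty. All genes called lower moved as well. For both nutrients they numbered 279 without protein library 22 (78 members) and 345 without lipid library 18 (93 members). Without both lipid library 14 and empty library 24, an alternative chosen after seeing the data, 54 members were chosen again. Members called were then 43 of 294 genes for protein versus cellulose and 36 of 196 for lipid versus cellulose. For protein versus empty they were 42 of 362 genes, and for lipid versus empty 37 of 118. The cause of these changes was not tested. No paired analysis was run, because no number in the labels is shared between groups and whether intestines were handled together is not known. For protein versus lipid and cellulose versus empty the count was 0 under each setting, which the choice makes likely because it bounds these distances. No direction of the 25 described members turned in 765 repeats. The members were chosen for that direction on the same values, so nothing is read from this.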
